A study of Homo sapiens with 8 samples.

Results

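The chromosome 19 zinc finger genes are the 233 probe sets, of 21448 transcript probe sets on the array, whose identifier places them on chromosome 19 and whose platform symbol is ZNF followed by a number and at most 1 letter. The choice used position and name, not expression. All 233 symbols were found on chromosome 19 in RefSeq (GRCh38.p14), where 231 are protein-coding genes and 2 are pseudogenes. Levels were read on 8 arrays of human T cell lines. MT-2 carries HTLV-1, which causes adult T cell leukaemia (ATL), and MT-1 was established from ATL. Each line was given the DNA demethylating agent OR21, the EZH2 inhibitor EPZ-6438 (EPZ, tazemetostat), which blocks H3K27 methylation, or both (the combination), or was left untreated. MT-2 cells received 100 nM OR21 and 500 nM EPZ, MT-1 cells 500 nM and 2500 nM, all for 96 h, with each compound given at seeding and once more at 48 h. Every line and treatment had 1 array. Differences within a line therefore have no replicate, each line stands for itself as a model, and precision is limited by the number of arrays.

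Most of these genes encode KRAB zinc finger proteins, the largest family of human transcription factors, which grew by tandem duplication into clusters of neighbouring paralogs on chromosome 19. The arrays of C2H2 fingers bind DNA, and the KRAB domain recruits TRIM28 (KAP1), which brings in SETDB1 and heterochromatin proteins that place and read H3K9 methylation. Many family members bind and silence retroelements in this way, while DNA methylation at their own promoters is known to silence several of the genes in tumours.

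The median log2 level of an array was 6.44 to 6.68. The background of an array was taken as the 95th percentile of its 612 negative-control probe sets, and lay between 7.19 and 7.80. Of the T cell markers looked up, IL2RA, CD5 and CCR4 stood above background on all 8 arrays and CD4 on the MT-2 arrays only, with CD28 on the MT-1 arrays only and CD7 on 5 of the 8. The defining markers CD2, CD3D, CD3E, CD3G and LCK stood above background on no array. Of 12 markers of other blood cells on the array none stood above background on all 8 arrays, and their summed log2 level was 66.3 to 69.4 on the MT-2 arrays and 64.7 to 75.2 on the MT-1 arrays. The highest sum was that of the MT-1 combination array, where the cytotoxic lymphocyte gene GNLY read 9.42 against 3.76 in untreated MT-1 cells, and HBA1, a globin gene, 10.00 against 6.94. The part of these shifts in the results below was not tested. In bulk RNA, fewer cells of a type and less RNA per cell cannot be told apart. Paralogs of this family share sequence, so signal from near-identical copies may be split or shared between probe sets, which was not tested here.

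With the 95th percentile as background a majority of the family gave a signal on some array, which was not so with the 99th. Of the 233 genes, 124 (53.2%) stood above background on at least 1 array, against 51.5% of all transcript probe sets, 56.2% of the 249 ZNF genes on other chromosomes and 44.3% of the 1023 other named genes of chromosome 19. Signal on all 8 arrays was seen for 63 genes (27%), against 32.3% of all probe sets. No array gave a signal above background for 109 genes. Per array, the number above background was 93 with OR21, 87 with EPZ, 85 with the combination and 81 without treatment in MT-2, and 103, 99, 97 and 95 in the same order in MT-1. In the same order the backgrounds of the arrays were 7.56, 7.43, 7.64 and 7.80 in MT-2 and 7.29, 7.27, 7.19 and 7.46 in MT-1, and their part in these numbers was not tested.

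The 10 genes with the highest mean signal were ZNF121, ZNF253, ZNF675, ZNF146, ZNF100, ZNF507, ZNF254, ZNF430, ZNF460 and ZNF708. Probe sets differ in affinity, so their levels do not rank the amounts of the transcripts. ZNF146, a protein made almost entirely of fingers and known as overexpressed in some carcinomas, read 12.02 with OR21, 12.26 with EPZ, 12.11 with the combination and 11.85 untreated in MT-2, and 11.58, 12.13, 11.46 and 11.98 in the same order in MT-1. The readings of the lines overlapped. ZNF121 read 12.72, 12.85, 12.51 and 12.99 in MT-2 and 12.37, 12.63, 11.98 and 12.76 in MT-1, and again the lines overlapped. Within a line the median gene of the family spanned 0.54 log2 units over the 4 arrays of MT-2 and 0.57 over those of MT-1.

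A set of 8 genes stood above background on all 4 MT-2 arrays and no MT-1 array, namely ZNF558, ZNF426, ZNF577, ZNF649, ZNF350, ZNF432, ZNF331 and ZNF550 (3.43% of the family, against 1.87% of all probe sets and 2.01% of ZNF genes elsewhere). The reverse held for 13 genes, namely ZNF57, ZNF493, ZNF492, ZNF91, ZNF585A, ZNF570, ZNF793, ZNF573, ZNF28, ZNF468, ZNF888, ZNF816 and ZNF845 (5.58%, against 3.69% of all probe sets and 8.03% of ZNF genes elsewhere). No test was made of these shares.

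The upstream windows of a few of these genes are printed because OR21 acts on CG methylation and these genes were on in 1 line only. Each holds the 250 bases before the annotated start of the gene in RefSeq (GRCh38.p14), 5′ to 3′ on the strand of the gene, with the dinucleotide CG, which reads the same on both strands, in capitals. ZNF577 and ZNF350 were above background in MT-2 only, and their windows lie at chr19:51887952-51888201 (minus strand), with 17 CG, and chr19:51986841-51987090 (minus strand), with 15 CG.
ZNF577: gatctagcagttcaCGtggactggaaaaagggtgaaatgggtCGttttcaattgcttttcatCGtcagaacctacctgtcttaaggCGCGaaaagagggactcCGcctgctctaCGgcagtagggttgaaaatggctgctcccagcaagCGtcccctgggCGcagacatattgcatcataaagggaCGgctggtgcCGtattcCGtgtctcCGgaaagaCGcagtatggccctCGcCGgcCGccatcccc
ZNF350: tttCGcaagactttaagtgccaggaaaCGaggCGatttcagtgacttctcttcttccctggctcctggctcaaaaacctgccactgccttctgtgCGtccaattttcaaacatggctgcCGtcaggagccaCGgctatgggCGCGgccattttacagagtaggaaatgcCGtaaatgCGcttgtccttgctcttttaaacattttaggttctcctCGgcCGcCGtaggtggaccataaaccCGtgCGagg
ZNF91 and ZNF492 were above background in MT-1 only, and their windows lie at chr19:23395472-23395721 (minus strand), with 7 CG, and chr19:22634074-22634323 (plus strand), with 13 CG.
ZNF91: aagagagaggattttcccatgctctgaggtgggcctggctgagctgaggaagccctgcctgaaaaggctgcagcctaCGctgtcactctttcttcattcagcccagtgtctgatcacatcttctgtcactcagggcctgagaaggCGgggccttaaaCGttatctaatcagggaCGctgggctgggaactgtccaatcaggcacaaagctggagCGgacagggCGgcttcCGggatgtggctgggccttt
ZNF492: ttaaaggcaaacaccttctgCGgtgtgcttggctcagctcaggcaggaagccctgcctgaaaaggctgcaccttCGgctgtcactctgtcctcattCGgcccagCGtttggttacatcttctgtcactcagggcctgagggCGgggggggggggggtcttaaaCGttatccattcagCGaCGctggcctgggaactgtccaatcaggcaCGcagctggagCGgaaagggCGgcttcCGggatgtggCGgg

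Of the family, 203 genes had an entry in the promoter table and 170 had a single window. All 170 held at least 1 CG, against 96.7% of 11785 protein-coding genes with a single window, and 83.5% held 10 or more, against 68.7%. The median was 15 CG in the family and 17 in all these genes. Genes above background on 8 arrays had a median of 14 CG (51 genes) and those above on none 16 (77 genes). It was 15.5 in those above background in MT-2 only (4 genes) and 14 in those above in MT-1 only (8 genes). CG counts are a description of the reference sequence. Methylation itself was not measured on these arrays.

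The first comparison asked how the lines differ before and across treatments. A probe set entered if at least 1 array gave it a level at or above the median of the table, 6.573, which kept 168 of the 233 genes (44 of them above background on no array) and 12942 probe sets in all. Line and treatment were fitted to the 8 arrays with limma, so that the 4 arrays of a line, each under another treatment, carry the spread. That spread includes the different doses of the lines. Between the lines 48 genes were higher in MT-2 (28.6%; background 22.7% of all probe sets tested) and 47 lower (28%; background 40.7%) at a Benjamini-Hochberg adjusted p under 0.05. These 95 calls are 56.5% of the genes tested, against 63.4% of all probe sets. Of the called genes, 32 higher and 38 lower stood above background on at least 1 array. With cyclic loess between arrays the split was 62 higher and 40 lower. All 4 MT-2 values lay above all 4 MT-1 values for 46 genes (27.4%; background 20.6%) and below them for 41 (24.4%; background 36.4%), while 81 overlapped.

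Between the untreated arrays alone, with no test, the MT-2 minus MT-1 difference was 1 log2 unit or more for 34 genes (20.2%; background 15.7%) and -1 or less for 30 (17.9%; background 27.2%). The median difference was 0.02 in the family and -0.29 over all probe sets kept. That of the family was -0.09 after centring each array on its median and 0.33 after loess, so no direction is given for the family as a whole. Differences ran from -5.33 for ZNF585A to 4.46 for ZNF649.

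**Figure D1:**
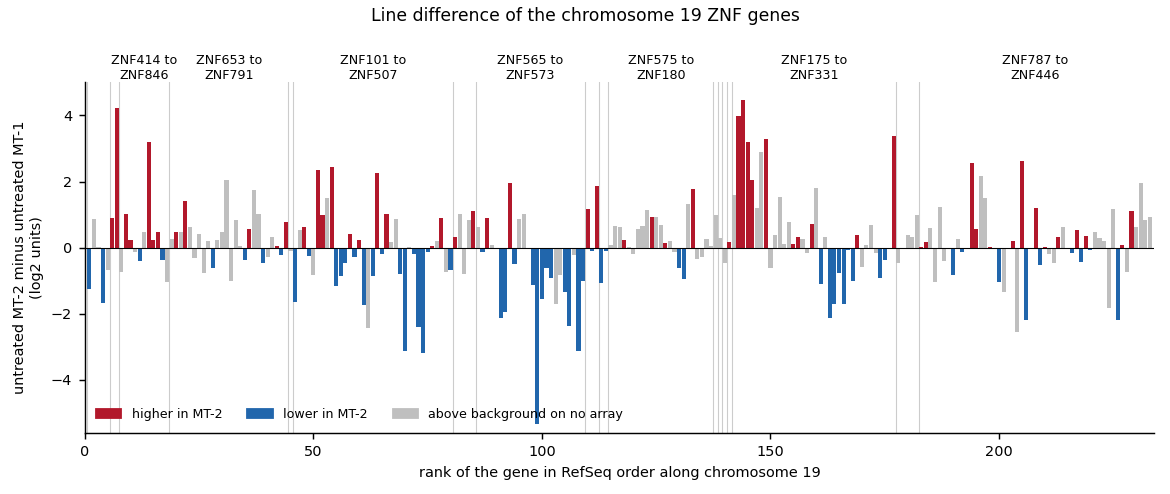
Untreated MT-2 minus untreated MT-1 level (vertical axis, log2 units) of each of the 233 genes by its rank in RefSeq order along chromosome 19 (horizontal axis), with vertical lines between blocks of neighbours and grey bars for genes above background on no array. ZNF649 reaches 4.46 and ZNF585A -5.33, with red bars for genes higher and blue bars for genes lower in MT-2.

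Genes on in MT-2 were led by ZNF649, reported as a repressor of serum response and AP-1 signalling. It read 10.23 with OR21, 9.83 with EPZ, 9.70 with the combination and 10.35 untreated in MT-2, and 6.45, 5.20, 6.26 and 5.89 in the same order in MT-1. No MT-1 array came near an MT-2 array, and none stood above background. The fitted difference was 4.08 (SE 0.23, limma adjusted p = 3.88e-05), and at least 2.72 when the MT-1 level is set at background.

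ZNF577, reported as methylated in several cancers, read 8.63, 8.40, 8.46 and 8.56 in MT-2 with OR21, EPZ, the combination and no treatment, and 5.12, 4.49, 5.02 and 4.59 in MT-1. The lines did not overlap and differed by at least 1.21 (fitted difference 3.71, SE 0.16, limma adjusted p = 1.29e-05). ZNF331, an imprinted gene found rearranged in thyroid adenomas, read 8.04, 8.50, 8.39 and 8.35 in MT-2 and 5.27, 4.99, 5.34 and 4.96 in MT-1. It was higher in MT-2 by at least 1.02 (3.18, SE 0.17, limma adjusted p = 3.1e-05). ZNF350 (ZBRK1), which works with BRCA1 as a corepressor at DNA damage genes, read 8.32, 7.88, 8.44 and 8.0 in MT-2 and 6.77, 6.02, 7.17 and 5.95 in MT-1, a difference of at least 0.86 (1.68, SE 0.17, limma adjusted p = 0.000371). All MT-2 readings of ZNF350 lay above all MT-1 readings.

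ZNF460 differed between lines in which it was on throughout. It read 12.26, 11.84, 11.93 and 11.91 in MT-2 and 8.91, 9.41, 8.92 and 9.34 in MT-1, so its difference of 2.84 (SE 0.19, limma adjusted p = 7.24e-05) was measured on both sides. ZNF737 and ZNF43, both from the cluster that runs from ZNF101 to ZNF507, were likewise on in both lines and higher in MT-2 by 1.90 and 1.72 (limma adjusted p = 0.000383 and 0.00138). ZNF426, ZNF432 and ZNF550 were higher in MT-2 by at least 0.87, 0.57 and 1.02. ZNF358 was also named by the rule, but only its untreated MT-2 reading of 7.90 stood above background, at least 0.45 above untreated MT-1.

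**Figure D2:**
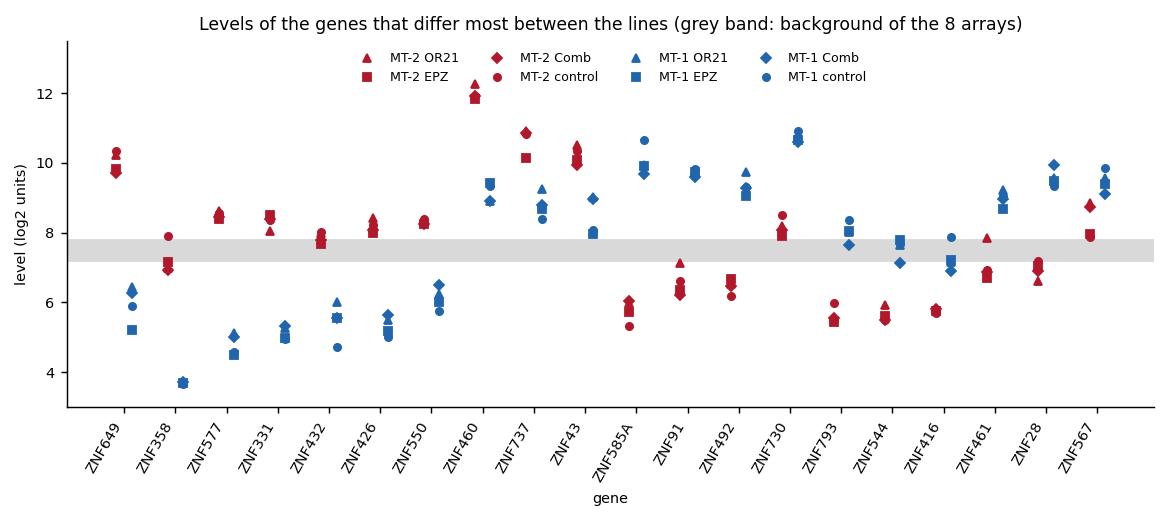
Levels (vertical axis, log2 units) on each of the 8 arrays of the 10 genes highest and the 10 lowest in untreated MT-2 against untreated MT-1 among genes that kept 1 direction under all treatments, with MT-2 in red left of MT-1 in blue and the background range of 7.19 to 7.80 in grey. For ZNF649 the 4 MT-2 points lie between 9.70 and 10.35 and the 4 MT-1 points between 5.20 and 6.45.

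Genes off in MT-2 and on in MT-1 were led by ZNF585A. It read 5.98 with OR21, 5.72 with EPZ, 6.04 with the combination and 5.34 untreated in MT-2, and 9.95, 9.92, 9.69 and 10.67 in MT-1. The lines lay far apart, with a difference of -2.45 or lower (fitted -4.29, SE 0.28, limma adjusted p = 6.44e-05). Its neighbour and paralog ZNF585B read 9.80, 9.04, 9.05 and 9.25 in MT-2 and 10.48, 10.64, 10.70 and 10.81 in MT-1. ZNF585B thus stayed above background in both lines, with a difference of -1.37 (SE 0.21, limma adjusted p = 0.00169).

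ZNF91, which silences SVA elements and some LINE-1 families in humans, read 7.13, 6.35, 6.22 and 6.63 in MT-2 and 9.75, 9.75, 9.59 and 9.82 in MT-1. Its MT-2 levels were below background on every array, so the difference is -2.12 or lower (fitted -3.15, SE 0.18, limma adjusted p = 3.87e-05). ZNF492, from the same cluster, read 6.54, 6.67, 6.48 and 6.18 in MT-2 and 9.73, 9.05, 9.28 and 9.32 in MT-1 (-1.74 or lower, limma adjusted p = 5.58e-05). ZNF730 was on in both lines and lower in MT-2 by a measured difference of -2.57 (SE 0.14, limma adjusted p = 3.02e-05). Of the other genes that the naming rule gave here, ZNF793 differed by -0.41 or lower, ZNF28 by -1.96 or lower and ZNF567 by a measured -1.12. The call of ZNF567 was lost when either EPZ array was left out and after loess. ZNF544, ZNF416 and ZNF461 stood above background on 3, 1 and 4 of the 4 MT-1 arrays and on 0, 0 and 1 of the 4 MT-2 arrays, so no value is given for them.

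The differences were then followed along the chromosome. Grouped by RefSeq order, with a new block wherever more than 10 other protein-coding genes lie between neighbours of the family, the 233 genes fell into 18 blocks, 10 of them with 5 genes or more. Between neighbours in 1 block the untreated MT-2 minus MT-1 difference correlated at r = 0.30 across 215 pairs, and at 0.37 across 110 pairs of genes above background on at least 1 array. Pairs share genes and, through near-identical sequence, perhaps signal, so these values are a description of the 2 untreated arrays.

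The block of 36 genes from ZNF175 to ZNF331 held both directions. Of its 27 genes tested, 10 were called higher and 10 lower in MT-2, while 22.7% of all probe sets tested were called higher and 40.7% lower. Among these calls, ZNF175, ZNF615, ZNF614 and ZNF83 (higher) and ZNF415 (lower) stood above background on no array. The block's first genes include ZNF577, ZNF649, ZNF613, ZNF350 and ZNF432, all called higher in MT-2. Further along lie ZNF611, ZNF28, ZNF468, ZNF320, ZNF888, ZNF816 and ZNF845, all called lower, with ZNF331, higher in MT-2, closing the block. ZNF28 read 6.62, 7.04, 6.89 and 7.20 in MT-2 and 9.57, 9.47, 9.93 and 9.33 in MT-1, which did not overlap. ZNF468 was -1.21 or lower and ZNF28 -1.96 or lower in MT-2 (limma adjusted p = 0.00011 and 0.000103). Only 3 genes of this block stood above background on all 8 arrays.

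**Figure D3:**
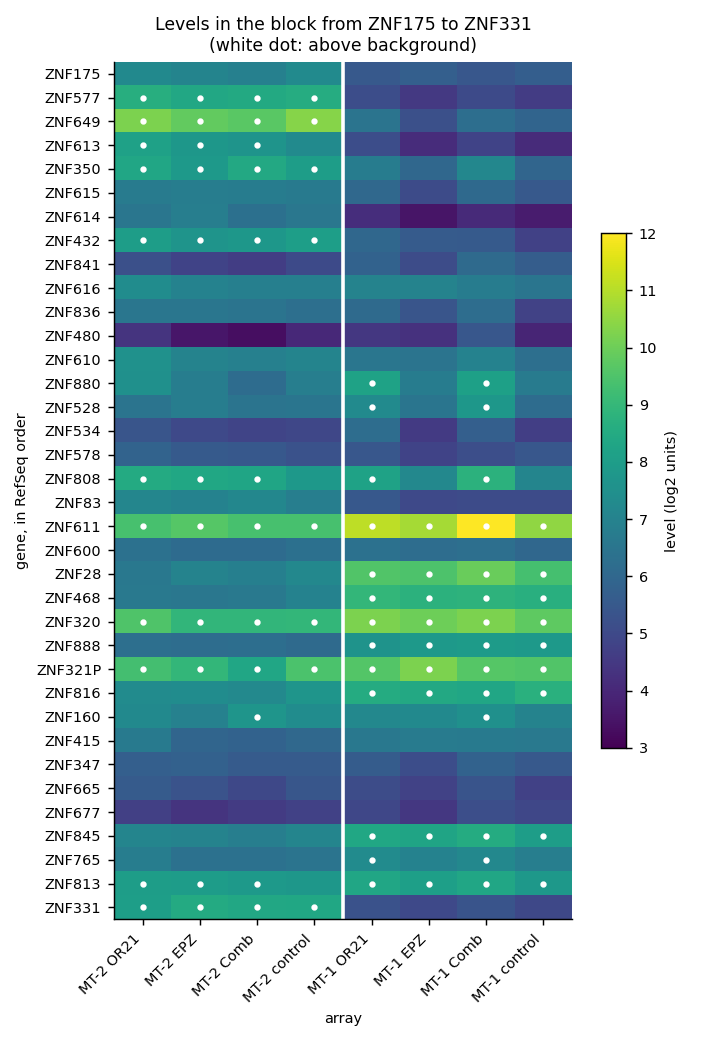
Level (colour, log2 units) of the 36 genes from ZNF175 to ZNF331, in RefSeq order from top to bottom, on the 4 MT-2 arrays (left) and the 4 MT-1 arrays (right), with a white dot where the level is above background. ZNF577, ZNF649, ZNF613, ZNF350 and ZNF432 carry dots in MT-2 only, and ZNF28, ZNF468, ZNF888, ZNF816 and ZNF845 in MT-1 only.

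In the block of 35 genes from ZNF101 to ZNF507, 26 stood above background on at least 1 array and 18 on all 8. Of its 32 genes tested, 8 were called higher and 14 lower in MT-2 (background 22.7% and 40.7%). Among these, ZNF14, ZNF486 and ZNF729 (higher) and ZNF93 and ZNF429 (lower) stood above background on no array. The block holds ZNF91, ZNF492 and ZNF730 among the lower and ZNF737 and ZNF43 among the higher. The 24 genes from ZNF565 to ZNF573, among them ZNF585A, had a median untreated difference of -0.74. That median was -0.85 after centring and -0.55 after loess. Of the 19 tested there, 3 were called higher and 8 lower (background 22.7% and 40.7%). The 23 genes from ZNF575 to ZNF180 were mostly silent, with 6 above background on any array. In the last block of 51 genes, from ZNF787 to ZNF446, 27 stood above background on at least 1 array. Of the 38 tested there, 11 were called higher and 6 lower (background 22.7% and 40.7%). Among these, ZNF304, ZNF547, ZNF586, ZNF274 and ZNF132 (higher) and ZNF583, ZNF772 and ZNF671 (lower) stood above background on no array.

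Single agents and their combination were then set against the untreated array of the same line, without a test, and across both lines with limma. limma called 0 genes of the family for OR21, for EPZ and for the combination, and 0 of all probe sets (background 0% each). At an unadjusted limma p under 0.05 there were 13 genes of the family with OR21 (7.74%), 5 with EPZ (2.98%) and 14 with the combination (8.33%). Of all probe sets tested there were 1079 (8.34%), 285 (2.2%) and 2489 (19.2%) in the same order. The lowest adjusted p in the family was 0.402 with OR21, 1 with EPZ and 0.114 with the combination. Without the MT-2 combination array, limma called 2 genes for the combination, ZNF808 and ZNF772 (5.72% of all probe sets were called in that fit). Both calls rested on the MT-1 combination array (limma adjusted p = 0.0467 and 0.042). The MT-1 difference of ZNF808 was at least 1.32, and ZNF772 stood above background on no array, so it is given no fold. What follows on treatments is a description of single arrays.

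With OR21 in MT-1, 8 genes were higher by 1 log2 unit or more (4.76%; background 5.35%) and 1 was lower (0.595%; background 3.75%). For 4 of the 8 higher the OR21 level exceeded the backgrounds of both arrays, and the 1 lower had an untreated level above both. After centring each array the split was 5 higher and 3 lower. With the combination in MT-1 there were 8 higher (4.76%; background 11.2%) and 8 lower (background 9.64%), of which 6 and 7 had a higher side above the backgrounds of both arrays. That split was 6 and 18 after centring and 10 and 6 after loess. The median change of all 21448 probe sets in MT-1 was -0.06 with the combination and -0.02 with OR21 as deposited, and -0.29 and -0.18 after centring. With EPZ alone 0 genes of the family passed 1 log2 unit either way in either line (backgrounds 0.896% and 0.355% in MT-2, 1.03% and 0.294% in MT-1). In MT-2, OR21 gave 3 higher (1.79%; background 2.36%) and 0 lower (background 1.69%), and the combination gave 1 higher (background 5.05%) and 2 lower (background 1.95%). Of the genes higher in MT-2, 0 of 3 with OR21 and 0 of 1 with the combination had a treated level above the backgrounds of both arrays.

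In MT-2 the family's median differed from untreated with each single agent, as read on 1 array each. With OR21, 105 of the 168 genes read higher than untreated (62.5%, against 43.7% of all probe sets kept), with a median of 0.17. With EPZ 52 did (31%, against 47.8%), with a median of -0.15. Both medians kept their sign after centring (0.13 and -0.15) and loess (0.22 and -0.12). With levels under background set to background they were -0.24 and -0.37, against -0.24 and -0.21 over all probe sets kept. In that setting a gene under background on both arrays takes the difference between their backgrounds. The background of the untreated MT-2 array, 7.80, was the highest of the 8, so the medians of that setting give no direction for the family. In MT-1 the medians were 0.07 with OR21, which turned to -0.10 after centring, and -0.01 with EPZ.

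**Figure D4:**
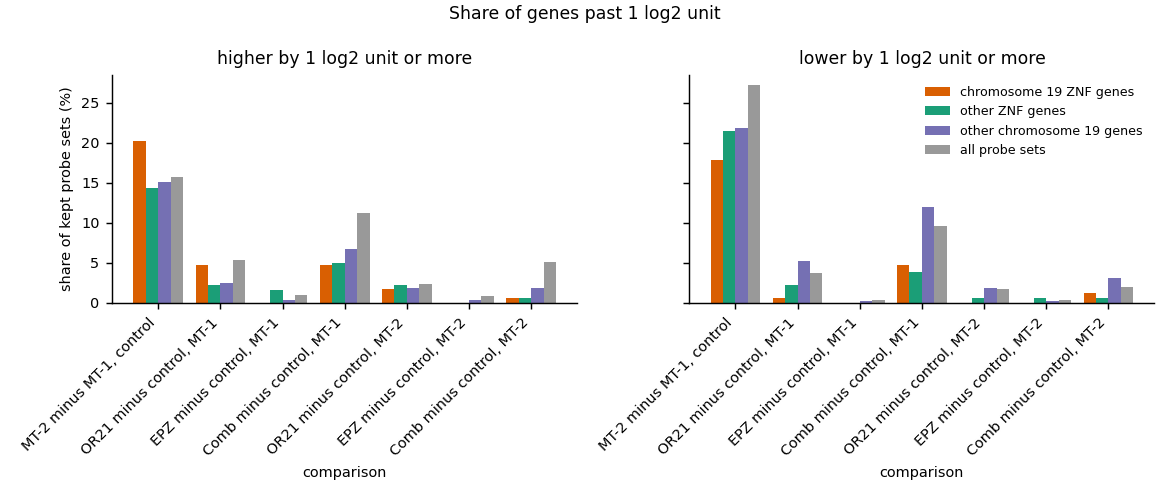
Share of kept probe sets (vertical axis, percent) that differ by 1 log2 unit or more in each comparison, higher (left) and lower (right), for the chromosome 19 ZNF genes, other ZNF genes, other chromosome 19 genes and all probe sets. With the combination in MT-1, 4.76% of the family was higher, against 11.2% of all probe sets.

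Of the 8 genes higher with OR21 in MT-1, 5 lie in the ZNF175 to ZNF331 block, and 5 of the 8 higher with the combination do too. ZNF808, a repressor of MER11 elements needed for human pancreas development, read 8.17 with OR21, 7.20 with EPZ, 8.78 with the combination and 7.10 untreated in MT-1, and 8.50, 8.37, 8.29 and 7.80 in MT-2. In MT-1 both arrays with OR21 were above background and the untreated one was not. Its difference from untreated was at least 0.72 with OR21 and at least 1.32 with the combination in MT-1, and in MT-2 at least 0.70 and at least 0.48. Across lines its adjusted p was 0.587 with OR21 and 0.232 with the combination (limma).

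ZNF880 read 8.18 with OR21, 6.78 with EPZ, 8.11 with the combination and 6.75 untreated in MT-1, and in MT-2 it was above background on no array. The MT-1 arrays that had received OR21 were the only ones with signal, at least 0.72 above untreated with OR21 and at least 0.65 with the combination. ZNF528 read 7.32, 6.49, 7.77 and 6.17 in MT-1, with signal again on the OR21 and combination arrays only. Since it reached 7.32 with OR21, below the untreated background of 7.46, only its combination value is given as a bound, at least 0.31.

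ZNF611, reported to bind SVA elements, was on throughout. In MT-1 it read 11.12 with OR21, 10.77 with EPZ, 12.07 with the combination and 10.49 untreated, and in MT-2 9.38, 9.62, 9.38 and 9.38. Its MT-1 differences were 0.64 with OR21 and 1.58 with the combination, against 0.00 and 0.00 in MT-2. ZNF134, from the last block, read 10.38, 9.13, 10.33 and 9.19 in MT-1 and 10.47, 10.20, 10.57 and 10.39 in MT-2. Its MT-1 levels with OR21 or the combination were 1.19 and 1.14 above untreated, within the span of its MT-2 arrays, 10.20 to 10.57. ZNF257 differed in MT-1 by at least 0.18 with OR21 and at least 0.16 with the combination.

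The windows of ZNF808 and ZNF134 are shown for the same reason as those above, as genes read higher with OR21 in MT-1. They lie at chr19:52527418-52527667 (plus strand), with 24 CG, and chr19:57613992-57614241 (plus strand), with 17 CG.
ZNF808: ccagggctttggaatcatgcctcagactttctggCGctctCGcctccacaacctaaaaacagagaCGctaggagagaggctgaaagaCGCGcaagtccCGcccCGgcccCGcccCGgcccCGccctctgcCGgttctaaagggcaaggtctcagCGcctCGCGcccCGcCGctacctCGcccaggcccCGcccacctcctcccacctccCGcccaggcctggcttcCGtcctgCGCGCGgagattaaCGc
ZNF134: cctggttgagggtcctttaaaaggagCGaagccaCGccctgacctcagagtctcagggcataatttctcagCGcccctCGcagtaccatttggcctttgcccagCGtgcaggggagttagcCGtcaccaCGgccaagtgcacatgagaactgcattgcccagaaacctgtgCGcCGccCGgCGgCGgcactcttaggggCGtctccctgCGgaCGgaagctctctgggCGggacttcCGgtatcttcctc

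ZNF772 had the lowest adjusted p of the family with OR21 and with the combination, yet stood above background on no array. It read 5.62, 4.39, 5.54 and 3.53 in MT-2 and 6.58, 5.17, 6.33 and 4.88 in MT-1 with OR21, EPZ, the combination and no treatment. Every treated array read above the untreated one of its line, but all 8 readings lie under the background of their arrays, so no fold is given. It was named here after its values were seen.

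The differences from untreated varied by block. In the ZNF175 to ZNF331 block 31 of 36 genes read higher with OR21 than without treatment (median 0.45), and 33 of 36 with the combination (median 0.46). With EPZ 25 of 36 did, and the block's median was 0.08. Only 14 of the 36 genes stood above background on any MT-1 array. Of these, 12 read higher with OR21 (median 0.41), 13 with EPZ (median 0.20) and 13 with the combination (median 0.52). Over all 21448 probe sets 47.6% read higher with OR21 and 45.2% with the combination in MT-1. In MT-2 the block's medians were 0.16 with OR21 and -0.11 with the combination. They were 0.03 and 0.02 for its 12 genes above background on any MT-2 array. After centring, 28 of the 36 genes still read higher in MT-1 with OR21 and 28 with the combination.

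The ZNF101 to ZNF507 block read higher with OR21 in both lines, for 27 of 35 genes in MT-2 (median 0.31) and 26 of 35 in MT-1 (median 0.37). Over all 21448 probe sets 47.3% in MT-2 and 47.6% in MT-1 did so. Among the block's genes above background on any array of the line, 17 of 23 in MT-2 (median 0.20) and 21 of 25 in MT-1 (median 0.41) did. With the combination the median of the whole block was -0.10 in MT-2 and 0.21 in MT-1, the last of which turned to -0.02 after centring. With EPZ it was -0.26 in MT-2 and -0.02 in MT-1. ZNF681, ZNF728 and ZNF257 of this block were among the genes the naming rule gave as higher with OR21 in both lines. ZNF681 read 0.49 higher in MT-2 and 0.79 higher in MT-1.

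In the ZNF565 to ZNF573 block the medians of the lines had opposite signs with OR21, a difference that was not tested. In MT-2 21 of 24 genes read higher (median 0.44), while in MT-1 8 of 24 did (median -0.22), against 47.3% of all probe sets in MT-2 and 47.6% in MT-1. Only 11 of the 24 stood above background on any MT-2 array and 15 on any MT-1 array. Of these, 10 of 11 read higher with OR21 in MT-2 (median 0.53) and 4 of 15 in MT-1 (median -0.33). With the combination the MT-2 median of all 24 was -0.06 and the MT-1 median -0.53, with 3 of 24 genes higher in MT-1. Among the 15 above background in MT-1, 1 was higher (median -0.73). Of the 8 genes lower by 1 log2 unit or more with the combination in MT-1, 5 lie in this block.

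**Figure D5:**
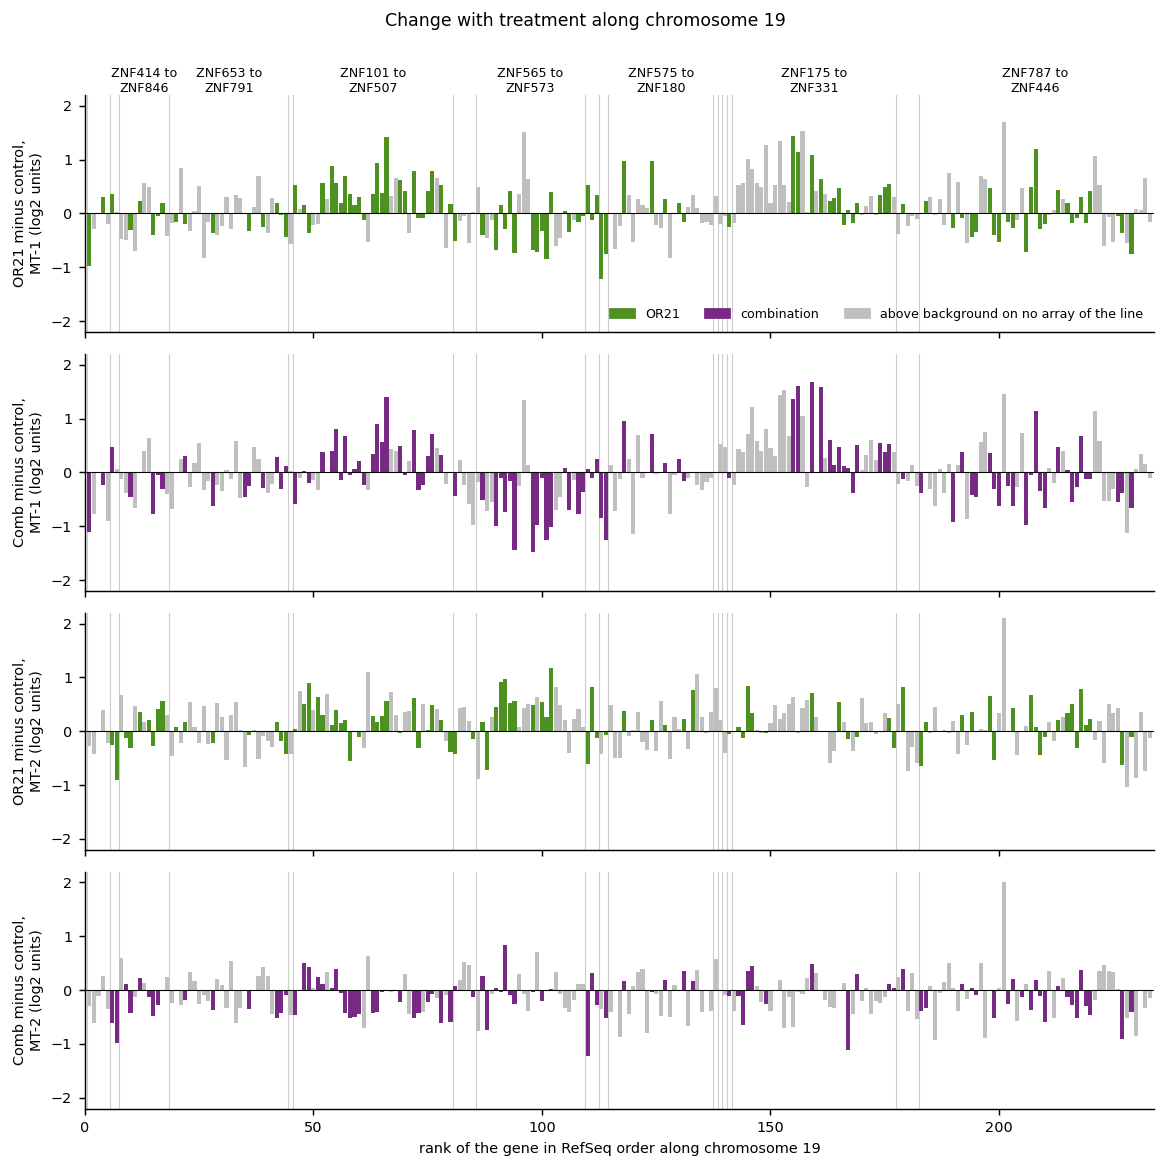
Treated minus untreated level (vertical axes, log2 units) of the 233 genes by rank in RefSeq order along chromosome 19, for OR21 (green) and the combination (purple) in MT-1 (upper panels) and MT-2 (lower panels), with grey bars for genes above background on no array of the line. In MT-1 the bars of the ZNF175 to ZNF331 block stand mostly above 0 (31 of 36 with OR21) and those of ZNF565 to ZNF573 mostly below 0 with the combination (3 of 24 higher).

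Neighbours in a block correlated in their MT-1 change at r = 0.25 with OR21, 0.33 with the combination and -0.01 with EPZ over 215 pairs. Over the 110 pairs of genes above background somewhere it was 0.51, 0.51 and 0.29. In MT-2 it lay between -0.01 and 0.13 over these comparisons and both sets of pairs. These correlations across genes rest on single arrays, and changes in a line share its untreated array, so they carry no test.

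Lower levels with the combination in MT-1 included ZNF420 (Apak), a KRAB protein that restrains p53. It read 7.93 with OR21, 8.01 with EPZ, 7.13 with the combination and 8.60 untreated in MT-1, and 7.96, 7.66, 7.44 and 7.47 in MT-2. All 3 treated MT-1 arrays lay below the untreated one, and the combination difference was -1.41 or lower. ZNF790 read 8.18, 7.99, 7.46 and 8.91 in MT-1, a combination difference of -1.45, and 8.97, 7.82, 8.15 and 8.41 in MT-2. ZNF383 and ZNF526 differed by -1.25 and -1.26 with the combination in MT-1, against 0.00 and -0.52 in MT-2, and ZNF382 by -1.0 against 0.03. In MT-2 the genes named as lower with the combination, from their readings, were ZNF546 (-0.54 or lower), ZNF321P (-1.12, measured) and ZNF358 (-0.27 or lower). ZNF8, with a measured -0.91, and ZNF566, with -0.63 or lower, were named with them after their values were seen. With OR21 in MT-1, ZNF574 was the 1 gene lower by 1 log2 unit or more, with readings that differed by -1.21. Its OR21 reading of 6.65 lay under background, so the difference is -0.56 or lower.

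Changes shared by the lines were small. Ranked by the smaller change of the lines, OR21's higher genes were ZNF808, ZNF728, ZNF257, ZNF530, ZNF681 and ZNF548, the last at 0.65 in MT-2 and 0.48 in MT-1. The lower ones were ZNF791, ZNF302, ZNF17, ZNF8, ZNF317 and ZNF211, of which ZNF791 differed by -0.43 in MT-2 and -0.44 in MT-1. With EPZ the leading lower gene was ZNF790, at -0.60 in MT-2 and -0.92 in MT-1, and the leading higher one ZNF681, at 0.26 and 0.31. With the combination ZNF551 differed by -0.60 in MT-2 and -0.66 in MT-1, and ZNF626 by 0.40 and 0.80.

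The change with both agents was also set against the sum of the single changes (combination minus OR21 minus EPZ plus untreated). In MT-2 this excess was 1 or more for 0 genes (background 2.43%) and -1 or less for 5 (background 1.63%), namely ZNF875, ZNF607, ZNF780B, ZNF880 and ZNF583. In MT-1 it was 1 or more for 0 genes (background 5.3%) and -1 or less for 4 (background 1.98%), namely ZNF101, ZNF792, ZNF875 and ZNF432. These genes are named after their values were seen. ZNF607, ZNF880 and ZNF583 stood above background on no MT-2 array and ZNF792 and ZNF432 on no MT-1 array, and in MT-2 ZNF875 did so on 1 array and ZNF780B on 3. With levels under background set to background, 0 genes passed in MT-2 and 1 in MT-1. ZNF101 read 10.51 with OR21, 10.00 with EPZ, 9.42 with the combination and 9.99 untreated in MT-1, so that it lay above untreated with OR21 alone and below it with both agents. The family's median excess was -0.10 in MT-2 and -0.05 in MT-1, against 0.08 and 0.02 over all probe sets kept.

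Lists of members with known roles were looked up whole. Of 12 genes reported as silenced by promoter methylation in cancers, 4 stood above background on at least 1 array, namely ZNF382, ZNF331, ZNF418 and ZNF577. ZNF471, ZNF667, ZNF154, ZNF132, ZNF582, ZNF677, ZNF671 and ZNF568 did so on none, also with OR21. ZNF154, a methylation marker in many tumours, read 5.0 with OR21, 5.01 with EPZ, 5.18 with the combination and 4.82 untreated in MT-2, and 4.98, 5.27, 5.10 and 5.01 in MT-1. Of the 7 genes tested, limma called 4 higher and 1 lower in MT-2 than in MT-1, while 22.7% of all probe sets tested were called higher and 40.7% lower. Over these 7 genes the median change with OR21 was 0.22 in MT-2 and 0.30 in MT-1. Over the whole family it was 0.17 in MT-2 and 0.07 in MT-1, and over all probe sets kept -0.06 in either line. The 7 include ZNF132, ZNF671 and ZNF568, which stood above background on no array, so the list's medians carry no fold.

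Of 10 members known to repress or bind retroelements, 8 stood above background on at least 1 array. Of the 9 tested, 0 were called higher and 5 lower in MT-2, against 22.7% and 40.7% of all probe sets tested. The 5 were ZNF91, ZNF93, ZNF765, ZNF320 and ZNF611. For ZNF93 and ZNF765, neither line's level exceeded both arrays' backgrounds with OR21, EPZ or the combination. ZNF91 is described above, and ZNF93, a LINE-1 repressor, stood above background on no array. ZNF417 and ZNF587, a pair of close paralogs that silence HERV-K elements, were on throughout, and their line differences were 0.18 and 0.31 (limma adjusted p = 0.459 and 0.104). ZNF417 read 10.48, 9.58, 10.08 and 10.37 in MT-2 and 9.86, 10.01, 9.90 and 10.03 in MT-1, which overlap. ZNF320 was lower in MT-2 by a measured difference of -0.97 and ZNF611 by -1.67 (limma adjusted p = 0.00237 and 0.00297). With OR21 the list's median change over the 9 tested was 0.40 in MT-2 and 0.47 in MT-1, and with EPZ -0.06 and 0.03. The family's medians were 0.17 and 0.07 with OR21 and -0.15 and -0.01 with EPZ. The list's MT-2 median with OR21, 0.40, is the reading of ZNF93. ZNF91, ZNF765 and ZNF880 also had no level above the backgrounds of both MT-2 arrays compared, so the list's medians carry no fold.

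Of 12 members with another known role 9 were tested, and limma called 5 higher and 0 lower in MT-2, against 22.7% and 40.7% of all probe sets tested. The 5 were ZNF274, ZNF350, ZNF304, ZNF558 and ZNF175. ZNF274 directs SETDB1 to zinc finger gene clusters, ZNF304 takes part in silencing of the INK4-ARF locus, and ZNF175 (OTK18) is known as a suppressor of HIV transcription in macrophages. These 3 were above background on no array, whereas ZNF558, a repressor of the mitophagy gene SPATA18, was higher in MT-2 by at least 0.60 (limma adjusted p = 0.00134). ZNF473, which works in histone mRNA processing, and ZNF224, a repressor of metabolic genes such as ALDOA, were on throughout with line differences of 0.30 and 0.14 (limma adjusted p = 0.109 and 0.399).

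Most of the genes looked up for the KRAB repression machinery gave a signal in both lines. Of 18 genes of this machinery on the array, 17 stood above background on all 8 arrays. All 18 were tested, with 3 called higher and 8 lower in MT-2 (background 22.7% and 40.7%). For each treatment limma called 0, as it did over all probe sets. On single MT-2 arrays their median change was -0.34 with OR21, -0.15 with EPZ and -0.36 with the combination. Over all probe sets kept it was -0.06, -0.02 and -0.02. With the combination in MT-2, 2 of the 18 were lower by 1 log2 unit or more (background 1.95%). In MT-1 the median with the combination was -0.2. TRIM28, the KRAB corepressor, read 12.25 with OR21, 12.17 with EPZ, 12.33 with the combination and 12.32 untreated in MT-2, and 12.85, 13.03, 12.64 and 12.84 in MT-1. Its line difference was -0.57 (limma adjusted p = 0.016) and that of SETDB1 -1.05 (0.00363). MPHOSPH8, a reader of H3K9 methylation in the HUSH complex, read 7.67, 7.53, 7.13 and 8.17 in MT-2 and 5.39, 4.86, 4.72 and 5.04 in MT-1, where it stood below background on all 4 arrays. Of 12 other chromosome 19 zinc finger genes not named ZNF, 7 were tested, limma called 4 higher and 3 lower in MT-2 (background 22.7% and 40.7%), and 4 stood above background on any array.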

How the data were processed

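The deposited table holds log2 values of 8 1-colour Affymetrix arrays, made with RMA per the submitters' processing notes. RMA's version, the array build and any rescaling were not stated in the sources used, and the log base is taken from RMA. Its highest value, 18.91, lies above what a 16-bit scanner gives. Of 24351 entries, 2903 control probe sets were left out of tests. Symbols came from the platform annotation table, with 0 updated, and gene order and promoter windows from RefSeq (GRCh38.p14).

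limma 3.58.1 (R 4.3.3; lmFit and eBayes without trend) fitted line and treatment to the 8 arrays (3 residual degrees of freedom) over all 12942 probe sets kept, with Benjamini-Hochberg adjustment over all of them, and was tested on simulated data. Within lines, differences between single arrays were counted at 1 log2 unit. Where 1 side only was above background, a difference was taken against the background and given as "at least" or "or lower". The members, gene lists and tests were chosen with earlier results of these data known. Named were the 10 highest and 10 lowest line differences, up to 6 genes a direction shared by the lines for each treatment, the 3 highest and 3 lowest for each line and treatment, all list members, and the 10 highest mean levels. Alternatives changed the filter, the normalization, the background, the variance model and the arrays used. Protein sequences were not used here.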

Additional observations from a re-analysis of the deposited data

Results flagged for a closer look

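Among genes above background on the treated or the untreated array in each line, 4 of the family had readings that differed from untreated by 0.5 log2 units or more in opposite directions in the lines. Each value is the difference between 1 treated and 1 untreated array, so the difference between the lines was not tested. ZNF790 read 0.56 higher in MT-2 and -0.73 in MT-1 with OR21. ZNF546 read -0.61 in MT-2 and 0.52 in MT-1 with OR21, where its untreated MT-1 level lay under background and the MT-1 difference is at least 0.08. ZNF557 read -0.67 in MT-2 and 0.58 in MT-1 with EPZ, the last of which is at least 0.53 against background. ZNF567, a member of the same block as ZNF790, was 0.84 in MT-2 and -0.73 in MT-1 with the combination.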

How the results depend on the processing

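Each group holds 1 array, so groups share no second replicate number. The limma fit held line and treatment without an interaction, so each treatment had 1 effect shared by both lines. Changes of opposite sign in the lines offset each other in that effect. With the 99th percentile of the negative controls as background, 57 genes stood above it on at least 1 array and 14 on all 8. With levels under background set to background, untreated MT-2 was higher than untreated MT-1 by 1 log2 unit or more for 10 genes and lower for 11. The genes past 1 log2 unit then numbered 0 with OR21 and 1 with the combination in MT-2, and 1 and 8 in MT-1. The excess of the combination passed 1 log2 unit for 0 genes in MT-2 and 1 in MT-1. Without a filter that excess passed for 8 genes in MT-2 and 7 in MT-1, and 5 genes passed with OR21 in MT-2. With OR21 in MT-2 this was also 5 after loess and 1 among genes above background. Requiring signal above background on at least 1 array left 31 genes called higher in MT-2 by limma, of fewer tested. Leaving out each array in turn gave 39 to 46 genes called higher and 36 to 47 lower in MT-2, 0 to 0 for OR21 and for EPZ, and 0 to 2 for the combination. The combination's 2 calls came without the MT-2 combination array. With an eBayes trend 10 probe sets, none of the family, were called for the combination. Leaving out the MT-1 or the MT-2 array of a treatment gave the same line counts, so each such pair is 1 check of the lines. ZNF567's line difference was -0.73 after loess and -1.02 without either EPZ array, no longer past the threshold. None of the 10 highest and 10 lowest line differences changed sign under these alternatives. Within a line, no named difference of 1 log2 unit or more changed sign after centring or loess. Smaller within-line differences were not checked for a change of sign. The split of higher and lower genes did change direction. It was 34 and 30 between the untreated lines as deposited, 28 and 33 after centring and 23 and 26 among genes above background. For the limma line calls it was 48 and 47, 46 and 50, and 31 and 41 in the same order. Medians near 0 changed sign with the scaling, as for the combination in MT-1 in the ZNF101 to ZNF507 block (-0.02 after centring, 0.21 as deposited). With 1 array a group, no within-line difference has a replicate error, and levels under background carry no fold.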
